A study of Mus musculus with 33 samples.

Results

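The comparison set blastocysts cloned from adult male Purkinje neurons against blastocysts cloned from neonatal Sertoli cells, which nurse germ cells in the testis. Its members were the 8 arrays whose labels name these donors, 4 for each, out of 33 arrays in all. Every embryo was of the strain (C57BL/6NxDBA/2)F1 and male by its label, and each array carried amplified RNA of 1 blastocyst. The nucleus of the donor cell had replaced that of an oocyte, and all 8 embryos were exposed to 50 nM trichostatin A, an inhibitor of histone deacetylases, for 1 h during activation, 5 h together with cytochalasin B and 2 h afterwards, before culture to 96 h. The donor cells differ in tissue and also in age, adult against neonatal, so the cell type and the age of the donor cannot be told apart. How many donor animals and transfer sessions stand behind the numbered replicates is not in the labels. The p-values therefore reflect the spread among the embryos measured, and that spread may be technical. Male CA1 clones (adult hippocampal neurons, n = 4), female Purkinje clones (n = 4) and female CA1 clones (n = 4) appear below where a value turns on them. So do in vitro fertilised (IVF) blastocysts, male (n = 7) and female (n = 3). Of these groups the clones had the same trichostatin A exposure.

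A cloned embryo starts from a nucleus whose chromatin is set for another cell type, and the oocyte cytoplasm resets much of it before the embryo switches on its own genes. At the blastocyst stage the outer trophectoderm pumps fluid into the cavity and later forms the placenta, while the inner cell mass holds the pluripotent cells and the primitive endoderm. Purkinje neurons no longer divide, whereas neonatal Sertoli cells still do, and Sertoli cells are a common donor for mouse cloning. In mouse clones Xist, a noncoding RNA by which female cells silence an X chromosome, is known to be expressed also from the single X of males.

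Levels are given as log2 of the signal relative to the 75th percentile of its array, so that 0 is that percentile, and signals under a shared floor were set to -3.42. Changes are differences of these log2 levels, male Purkinje minus Sertoli, so a positive change means higher in Purkinje clones. In these whole embryos a lower level cannot tell fewer cells of a kind from less RNA per cell. The signal at the 75th percentile was 229.9 to 661.1 units on the Purkinje arrays and 948.9 to 1135 units on the Sertoli arrays (exact permutation test, two-sided, p = 0.0286, the smallest that 4 against 4 allows). The share of probes well above background was 49.0% to 55.9% on the Purkinje arrays and 45.3% to 46.2% on the Sertoli arrays (exact permutation test, p = 0.0286). The 4 Purkinje arrays lay on 1 slide and the 4 Sertoli arrays on another, scanned on different days, so donor, slide and scan day cannot be told apart. Across genes, Purkinje clones correlated with each other at r = 0.951 to 0.981, Sertoli clones with each other at 0.943 to 0.979, and Purkinje with Sertoli clones at 0.924 to 0.959. Purkinje replicate 1 correlated on average at 0.954 with its own group and at 0.954 with the male CA1 clones, and Sertoli replicate 4 at 0.949 with its own group, the lowest of the 8.

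Of 13250 genes tested, 260 (1.96%) passed an adjusted p under 0.05 (limma, Benjamini-Hochberg over all genes). Of these, 159 (1.2%) were higher and 101 (0.762%) were lower in Purkinje clones, and in all 260 the groups did not overlap. Among all genes, the groups were free of overlap in 12.3%, with all Purkinje clones above in 7.09% and all below in 5.19%. The median change of the genes that passed was 1.52 in size and the smallest 0.86, against a median of 0.02 over all genes. The split was 63 higher and 80 lower after scaling to the array median, which moves the median of all genes to -0.15, 127 and 117 after normexp background correction, and 614 and 188 in the authors' deposited value table. Leaving out Purkinje replicates 1 to 4 in turn gave 341, 258, 25 and 11 genes, and leaving out Sertoli replicates 1 to 4 gave 5, 23, 18 and 120. Without Purkinje replicates 3 and 4, the dimmest arrays, limma gave 0 genes (1713 at an unadjusted p under 0.05, against 2485 with all arrays), although all 249 of the 260 genes still tested kept their direction.

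The largest rises were in genes of varied roles. Bex4, an X-linked member of the brain-expressed X-linked family, had levels of 2.93, 4.01, 2.65 and 4.27 in Purkinje clones, against -1.60, 0.77, 1.62 and -0.84 in Sertoli clones, a change of 3.48 (SE 0.69, adjusted p = 0.0445). Every Purkinje clone lay above every Sertoli clone, and the Sertoli clones were the more scattered. Bex4 passed in 0 of the 8 fits that left out an array. Myt1l, a transcription factor of neurons, had -0.61, -0.11, 1.5 and 0.81 in Purkinje clones, against -1.53, -3.42, -3.42 and -3.40 in Sertoli clones, a change of 3.34 (SE 0.56, adjusted p = 0.0347). Female Purkinje clones averaged -2.84 for Myt1l, near the Sertoli clones, and its other probe changed by 0.99. Myt1l passed in 2 of the 8 fits that left out an array. Scrn1, which encodes secernin, a protein of regulated secretion, had -1.01, 0.06, -0.61 and -0.71 in Purkinje clones and lay on the floor in all 4 Sertoli clones, so that Purkinje clones were at least 7.19-fold higher, with an adjusted p = 0.00422. Its second probe also moved up, by 2.28, and the gene passed in all 8 fits that left out an array. Scrn1 averaged -2.18 in female Purkinje clones, -1.04 in male CA1 clones and -1.19 in male IVF blastocysts, which have no neuronal donor.

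Parm1, a mucin-like membrane protein, had 0.59, 0.63, 1.60 and 2.02 in Purkinje clones, against -1.63, -1.34, -2.04 and -1.61 in Sertoli clones, a change of 2.86 (adjusted p = 0.0176). Male CA1 clones averaged 2.26, above both. Pigt, a subunit of the complex that attaches membrane anchors to proteins, rose by 3.00, and Slc12a9, of the cation-chloride cotransporter family, by 3.11. Usf2, a transcription factor that binds E-boxes, rose by 2.93 on the probe that stood for it, whereas its other probe changed by 0.00. Another 4 of the 12 largest rises (NAP053178-1, LOC673334, AK040490 and NAP072161-1) were array features without a described gene, with changes of 2.84 to 3.25. NAP072161-1 had 3.39, 3.60, 3.01 and 3.62 in Purkinje clones, against 0.46, 1.1, 0.33 and 0.38 in Sertoli clones, and it too passed in all 8 fits that left out an array.

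The largest falls included a cytoskeletal adaptor, signalling regulators and metabolic enzymes. Obsl1, an obscurin-like cytoskeletal adaptor, had -2.98 in Purkinje replicate 1 and the floor in the other 3 Purkinje clones, against 0.49, 0.05, -0.59 and -0.06 in Sertoli clones, a change of -3.28 (SE 0.26, adjusted p = 0.00422). It was the third gene to pass in all 8 fits that left out an array. Bambi, a decoy receptor of TGF-beta and BMP signalling, had 0.93, -0.18, 0.43 and -0.01 in Purkinje clones, against 3.23, 2.65, 2.55 and 2.68 in Sertoli clones, a change of -2.48 (adjusted p = 0.0168). The gap between the groups exceeded the spread within either. Pde8a, a phosphodiesterase that degrades cAMP, had 0.55, 2.59, 2.51 and 1.74 in Purkinje clones, against 4.16, 4.87, 4.02 and 4.54 in Sertoli clones, a change of -2.55. Khk, the first enzyme of fructose breakdown, fell by 2.70, Sufu, an inhibitor of hedgehog signalling, by 2.51, and Tenm3, a teneurin of cell contacts, by 2.56. Lck, a Src-family kinase of T cells, fell by 2.91, and Col5a3, a fibrillar collagen chain, by 2.39. The unnamed transcript TC1514005 fell by 2.88. Afap1, an actin-binding adaptor, and Rab3d, a GTPase of secretory vesicles, fell by 2.55 and 2.44, but their other probes changed by 0.22 and 1.26. Several of these levels lie on the floor, so the size of such a change depends on where the floor is set.

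**Figure D1:**
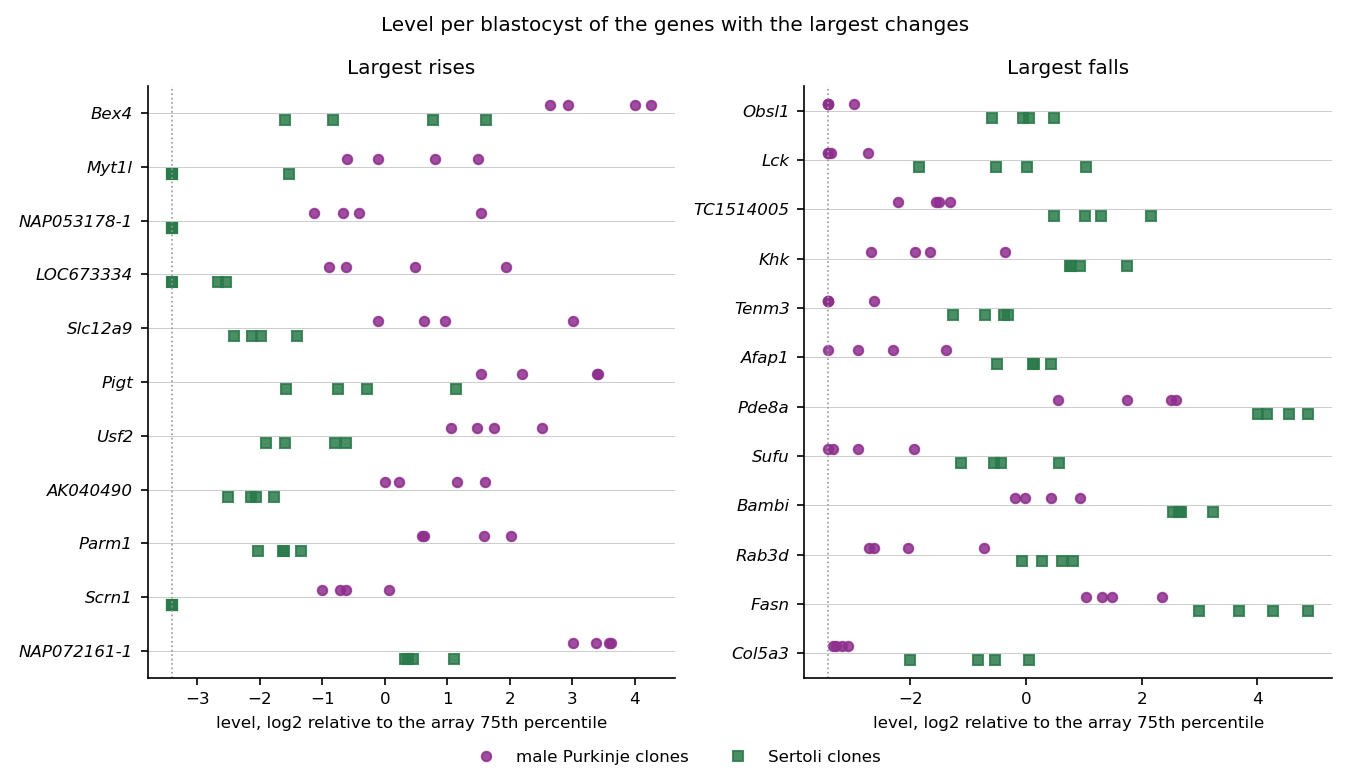
Levels per blastocyst of 11 of the 12 genes with the largest rises (left panel) and the 12 with the largest falls (right panel), as log2 relative to the array's 75th percentile. Circles are the 4 male Purkinje clones, squares the 4 Sertoli clones and the dotted line the floor; no gene shown has overlapping groups, which the rule for naming them required.

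Of the gene lists used, cholesterol synthesis had the lowest median change in Purkinje clones. Cells make cholesterol from acetyl-CoA through the mevalonate and squalene steps, and the transcription factor SREBP-2, the product of Srebf2, switches on most of the enzymes when membrane sterol is low. Of 23 genes tested, 10 were lower, against 0.762% lower among all genes, and 0 were higher, against 1.2%. In 16 all 4 Purkinje clones lay below all 4 Sertoli clones, against 5.19% of all genes, and in 0 did they lie above. The median change of the list was -1.31, against 0.02 over all genes. Over the 23 genes the mean level of an embryo was 2.83, 2.98, 2.82 and 2.78 in Purkinje clones, against 4.02, 3.73, 3.84 and 4.30 in Sertoli clones. Purkinje clones were close together and below all Sertoli clones.

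In the early steps, Hmgcs1, which makes HMG-CoA, had a mean level of 6.24 in Purkinje clones and 7.40 in Sertoli clones, a change of -1.15 (SE 0.21, adjusted p = 0.0390). Mvd, which makes isopentenyl diphosphate, had 0.96, 0.73, -0.55 and -0.63 in Purkinje clones, against 2.21, 1.86, 2.37 and 2.66 in Sertoli clones, a change of -2.15 (SE 0.40, adjusted p = 0.0390). Idi1, which isomerises that product, fell by 1.08. In the squalene steps Fdft1, squalene synthase, fell by 1.47. Sqle, squalene epoxidase, had 4.57, 4.42, 4.49 and 3.93 in Purkinje clones, against 6.51, 6.04, 5.94 and 6.67 in Sertoli clones, a change of -1.94 (SE 0.25, adjusted p = 0.0192). Lss, which closes the sterol ring, fell by 1.36. Among the later steps Tm7sf2, a sterol reductase, had 1.55, 0.68, 0.77 and 0.71 in Purkinje clones, against 2.93, 2.54, 2.66 and 3.66 in Sertoli clones, a change of -2.02 (adjusted p = 0.0299), and Hsd17b7 fell by 1.57. Dhcr7, a reductase of the last steps, changed by -0.46 and did not pass (adjusted p = 0.488).

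Regulators of the pathway differed in their calls. Insig1, which holds the SREBP proteins in the endoplasmic reticulum and is itself an SREBP target, had -0.81, -0.12, -0.75 and -1.0 in Purkinje clones, against 1.46, 1.11, 0.89 and 1.59 in Sertoli clones, a change of -1.93 (SE 0.26, adjusted p = 0.0214). Its other probe changed by -2.13. Srebf2 itself changed by -0.77 and did not pass (adjusted p = 0.137). Acat2 and Ebp were the 2 genes of the list with a positive change, 1.45 and 0.19, and neither passed (adjusted p = 0.303 and 0.741). Over all the other settings the list median lay between -1.49 and -1.15. The number lower was 9, 7, 1 and 0 without Purkinje replicates 1 to 4 in turn and 0, 1, 1 and 3 without Sertoli replicates 1 to 4. It was 0 without both of the dimmest Purkinje arrays, with 22 of the 23 changes negative.

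**Figure D2:**
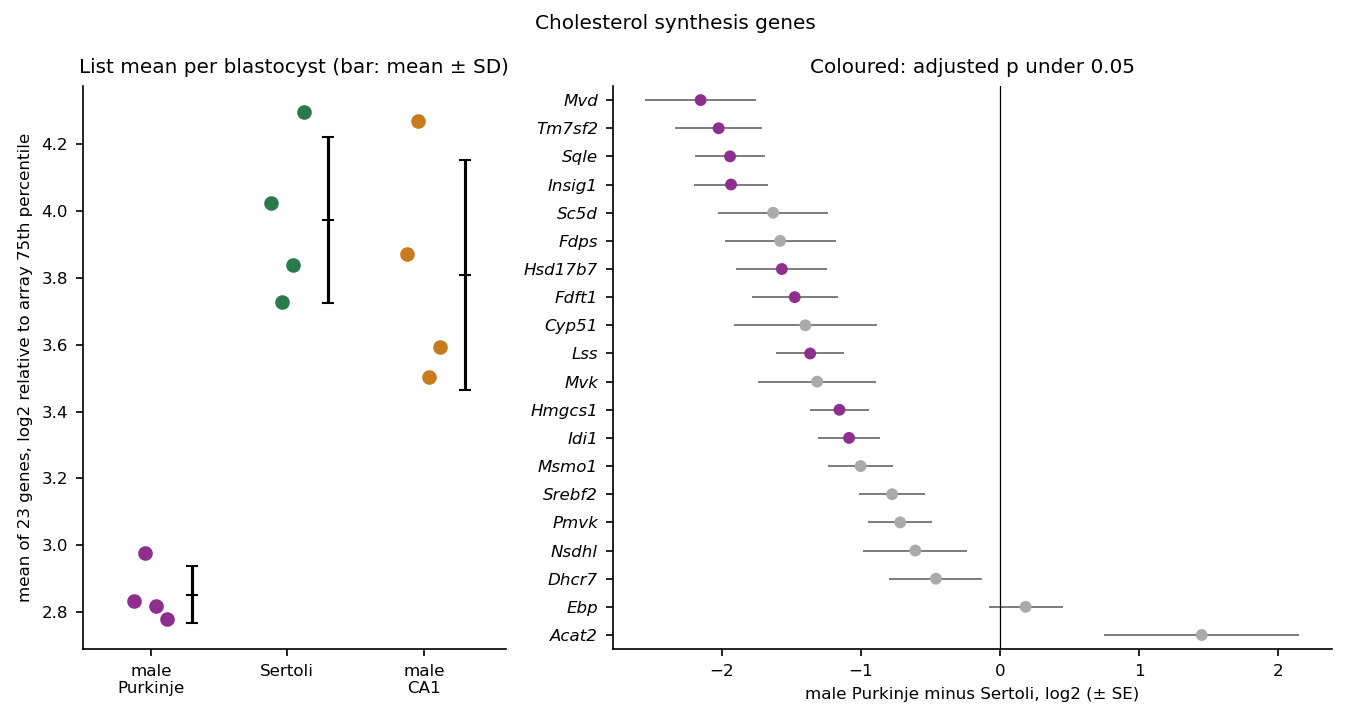
Left, mean level of the 23 cholesterol synthesis genes in each blastocyst (log2 relative to the array's 75th percentile) for male Purkinje, Sertoli and male CA1 clones, with mean ± SD (n = 4 each). Right, change of 20 of the 23 genes, male Purkinje minus Sertoli (log2, ± SE), coloured where the adjusted p was under 0.05; 18 of the 20 points lie left of 0.

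The promoters of the sterol genes, those that passed and those that did not, were read for sites of the factors known to act there. The 250 bases before the start of transcription were taken from RefSeq (GRCm38.p6), in which 17 of the 23 genes had an entry. Both strands were searched for CCAAT, the box bound by NF-Y, a known partner of SREBP, and for TCACNCCAC, a form of the sterol regulatory element. CCAAT was found for 16 of the 17 genes, against 37.5% of all 27025 genes in the table, and TCACNCCAC for 1 of the 17, against 1.22%. They are shown for 5 genes that fell and that act in or around the pathway, with matches to either motif in capitals. They are Mvd at chr8:122443423-122443672 (minus strand), Tm7sf2 at chr19:6067851-6068100 (minus strand), Insig1 at chr5:28071162-28071411 (plus strand), Hmgcs1 at chr13:119690101-119690350 (plus strand) and Idi1 at chr13:8885356-8885605 (plus strand), each printed 5′ to 3′ on the strand of its gene.
Mvd: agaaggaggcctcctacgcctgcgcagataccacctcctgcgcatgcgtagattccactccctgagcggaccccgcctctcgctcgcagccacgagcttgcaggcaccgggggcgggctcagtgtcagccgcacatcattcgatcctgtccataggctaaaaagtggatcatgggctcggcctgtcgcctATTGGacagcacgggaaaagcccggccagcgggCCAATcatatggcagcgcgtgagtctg
Tm7sf2: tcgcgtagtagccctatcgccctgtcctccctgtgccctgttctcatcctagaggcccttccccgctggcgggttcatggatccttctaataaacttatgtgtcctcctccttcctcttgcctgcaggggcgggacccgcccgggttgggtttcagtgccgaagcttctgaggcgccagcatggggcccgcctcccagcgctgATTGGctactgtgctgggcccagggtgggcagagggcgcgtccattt
Insig1: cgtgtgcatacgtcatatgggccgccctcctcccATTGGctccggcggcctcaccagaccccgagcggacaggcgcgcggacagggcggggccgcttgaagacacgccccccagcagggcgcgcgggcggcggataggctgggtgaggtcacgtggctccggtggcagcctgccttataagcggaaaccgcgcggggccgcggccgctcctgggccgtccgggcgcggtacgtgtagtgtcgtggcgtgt
Hmgcs1: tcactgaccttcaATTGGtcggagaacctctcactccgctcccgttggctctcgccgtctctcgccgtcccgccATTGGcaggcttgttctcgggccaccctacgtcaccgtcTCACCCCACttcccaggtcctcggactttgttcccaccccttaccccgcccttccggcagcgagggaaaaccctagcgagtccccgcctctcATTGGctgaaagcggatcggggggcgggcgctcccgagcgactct
Idi1: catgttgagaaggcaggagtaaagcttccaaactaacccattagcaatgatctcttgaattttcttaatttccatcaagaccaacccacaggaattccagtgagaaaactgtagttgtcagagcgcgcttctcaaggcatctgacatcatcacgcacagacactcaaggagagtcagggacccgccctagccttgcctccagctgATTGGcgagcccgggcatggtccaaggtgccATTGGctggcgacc
The box stands as ATTGG where it lies on the opposite strand. Counted from the start of transcription, where the base just before it is -1, its first base lies at -60 and -27 in Mvd, at -47 in Tm7sf2, at -216 in Insig1, at -237, -176 and -45 in Hmgcs1 and at -45 and -14 in Idi1. The sterol regulatory element of Hmgcs1 begins at -137. These matches describe the letters in the window and do not show binding.

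Fatty acid synthesis, which the related factor SREBP-1 controls, was lower at several steps. Of 31 lipid droplet and fatty acid genes 3 were lower and 1 was higher (shares over all genes 0.762% and 1.2%), with a median change of -0.44. Acly, which supplies acetyl-CoA, had 0.42, 0.89, 0.71 and 0.58 in Purkinje clones, against 1.83, 1.83, 1.69 and 1.57 in Sertoli clones, a change of -1.08 (SE 0.20, adjusted p = 0.0376). Fasn, fatty acid synthase, had 2.36, 1.32, 1.49 and 1.04 in Purkinje clones, against 4.27, 2.98, 3.68 and 4.88 in Sertoli clones, a change of -2.40 (SE 0.43, adjusted p = 0.0364). Scd2, a desaturase, had 4.73, 4.55, 4.99 and 4.77 in Purkinje clones, against 6.16, 5.91, 6.17 and 6.46 in Sertoli clones, a change of -1.41 (adjusted p = 0.0263). The groups did not overlap in any of the 3, but for Fasn the range within each group exceeded the gap between them, and it passed in 1 of the 8 fits that left out an array. Acaca and Scd1 changed by -1.28 and -1.08 without overlap and did not pass (adjusted p = 0.0712 and 0.0565). None of the 6 fatty acid oxidation genes of the list passed. They changed by 0.77 (Acadm), 0.68 (Acadvl), 0.39 (Acadl), 0.29 (Cpt1a), -0.04 (Cpt2) and -0.14 (Hadha), with adjusted p = 0.112 to 0.950. Fabp3, a fatty acid binding protein that is also a trophectoderm marker, rose by 1.28 (adjusted p = 0.0356).

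Other groups of embryos place these levels. The mean over the 23 sterol genes was 2.85 ± 0.09 in male Purkinje clones and 3.08 ± 0.39 in female Purkinje clones (SD, n = 4 each). It was 3.97 ± 0.25 in Sertoli clones, 3.81 ± 0.34 in male CA1 clones and 3.60 ± 0.42 in female CA1 clones (SD, n = 4 each). IVF blastocysts, measured with another scanner and software version, averaged 3.46 ± 0.29 in males (SD, n = 7) and 3.04 ± 0.46 in females (SD, n = 3). The female IVF mean thus lay close to that of the female Purkinje clones. The female clones share no array with the male comparison, although female Purkinje clones were scanned on the day of the male ones. Female Purkinje and female CA1 arrays lay on different slides, scanned on different days. Donor, slide and scan day therefore cannot be told apart in female clones either. Between female Purkinje and female CA1 clones 476 of 13401 genes passed (3.55%), 254 higher (1.9%) and 222 lower (1.66%). Of the 23 sterol genes 18 had a negative change there, with a list median of -0.53, but 0 passed in limma. Mvd changed by -1.63, Fasn by -2.09 and Sqle by -0.99 in female clones (adjusted p = 0.0946, 0.0907 and 0.140). The 75th percentile of the signal was low in this group too, with 354.7 to 840.4 units in female Purkinje clones and 1033 to 1450 units in female CA1 clones, and the part of signal strength in the sterol result was not tested.

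Enzymes of sugar use and a nutrient carrier were lower as well. Of 26 genes of glycolysis and pyruvate use 3 were lower and 0 were higher (shares over all genes 0.762% and 1.2%), with a median change of -0.37. Ldha, which turns pyruvate into lactate, had 0.93, 0.93, 1.71 and 1.76 in Purkinje clones, against 3.23, 3.38, 3.40 and 2.62 in Sertoli clones, a change of -1.82 (SE 0.29, adjusted p = 0.0328). Its other probe changed by -1.87. Eno3, an enolase, fell by 1.52 (adjusted p = 0.0323) and Aldoc, an aldolase, by 2.02 (adjusted p = 0.0214). Slc1a5, a glutamine carrier, had 0.77, 1.11, 0.52 and -0.06 in Purkinje clones, against 2.51, 2.06, 2.09 and 3.38 in Sertoli clones, a change of -1.92. It was the 1 of 24 amino acid transporters that passed, against 1.96% of all genes. The transporter list as a whole went the other way, with a median change of 0.26 and 14 of 24 changes positive. Slc1a5 also fell in female Purkinje clones against female CA1 clones, by 1.97 (adjusted p = 0.0227). Gstp1, a glutathione transferase, fell by 1.18 (adjusted p = 0.0471), the 1 of 38 antioxidant genes that passed, against 1.96% of all genes. The median change of the antioxidant list was 0.17.

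Bright housekeeping genes lay higher in Purkinje clones. Of 84 cytosolic ribosomal protein genes 7 were higher and 0 lower, against 1.2% and 0.762% of all genes, and in 32 all Purkinje clones lay above all Sertoli clones, against 7.09% of all genes. Rpl30 had 7.08, 6.93, 7.84 and 7.83 in Purkinje clones, against 6.10, 6.09, 5.94 and 6.37 in Sertoli clones, a change of 1.29 (adjusted p = 0.0471), and Rpl6 and Rpl15 rose by 1.08 and 1.07. The other probe of Rpl11, which rose by 1.23, changed by -1.5. Of 29 chaperones 2 were higher, against 1.2% of all genes, and 0 lower, Hsp90aa1 by 1.51 and Hspa8 by 1.39 (adjusted p = 0.0457 and 0.0307). Of 79 respiratory chain genes 2 were higher, again against 1.2%, and 0 lower, Cox7c by 1.26 and Atp5b by 0.97.

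These rises went with brightness. Among the 73 genes with a mean level from 8 to 12 the median change was 0.91, with all Purkinje clones above in 82.2%, and among the 534 from 6 to 8 it was 0.29. Between -2 and 6 the medians of the 4 level ranges lay from -0.05 to 0.03, and among the 2659 dimmest genes, from -4 to -2, the median was 0.12. Of the ribosomal genes 62 had a level over 6, with a median change of 0.60, against 0.32 for the 545 other genes over 6. The list median over all 84 genes, 0.44, became -0.0030 under quantile normalization and 0.01 after normexp background correction, each with 1 gene higher. The sterol genes lay between -0.85 and 7.20 in mean level, with a median of 3.58, and 4 of the 23 lay over 6. The part of brightness in the ribosomal, chaperone and respiratory chain results was not tested further.

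**Figure D3:**
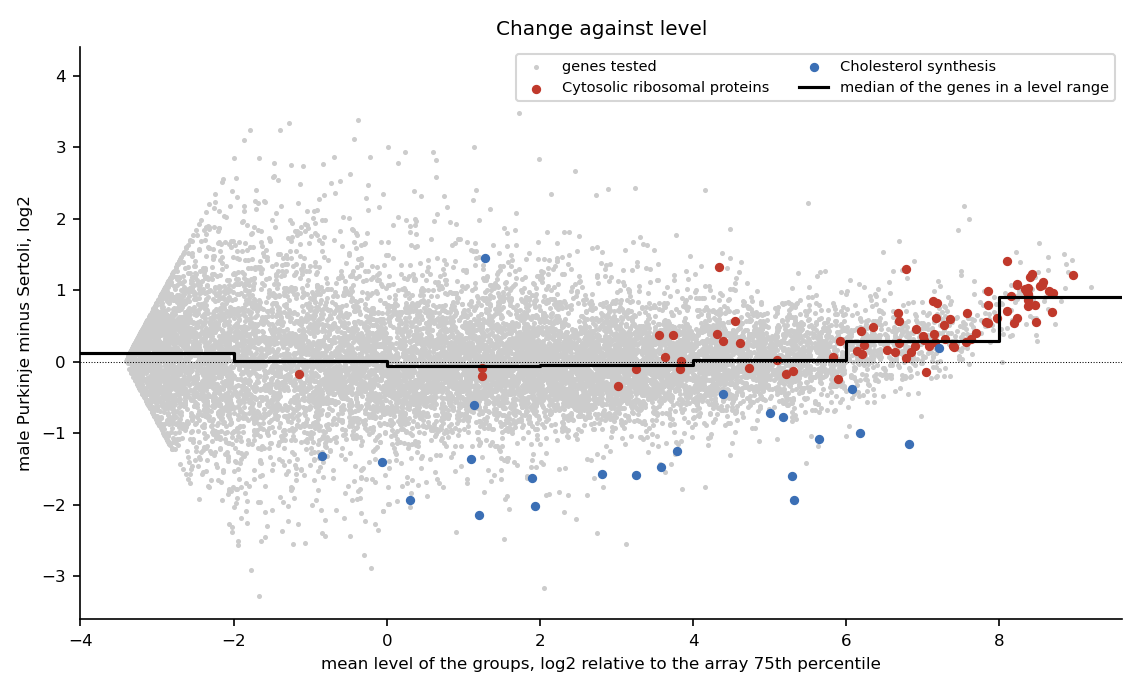
Change of each of the 13250 genes, male Purkinje minus Sertoli (log2), against the mean level of the groups (log2 relative to the array's 75th percentile). The stepped line is the median of the genes in each level range. It is 0.12 below a level of -2, lies from -0.05 to 0.03 between -2 and 6 and reaches 0.91 above 8. Most ribosomal protein genes (red) lie at levels over 6 and most cholesterol synthesis genes (blue) lie below the line.

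Most changes of the stress genes were positive. Of 33 genes of the integrated stress and unfolded protein responses 1 was higher and 0 lower (shares over all genes 1.2% and 0.762%). In 7 of the 33 all Purkinje clones lay above all Sertoli clones, against 7.09% of all genes, and 27 of 33 changes were positive, with a median of 0.44. Dnajc3, which restrains the translation-halting kinases, had 3.22, 2.92, 3.14 and 3.22 in Purkinje clones, against 2.10, 0.94, 1.68 and 1.83 in Sertoli clones, a change of 1.49 (adjusted p = 0.0373). Of 31 p53 response genes 1 was higher and 1 lower (shares over all genes as above). Rrm2b, a ribonucleotide reductase subunit of DNA repair, rose by 1.44, and Sesn1, a sestrin that restrains growth signalling, fell by 1.01 (adjusted p = 0.0445 and 0.0471). The median change of the p53 list was 0.60, with 25 of 31 changes positive.

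Lineage genes were present in both groups. Pou5f1, the central pluripotency factor, averaged 3.77 in Purkinje clones and 3.59 in Sertoli clones, and Cdx2, the trophectoderm factor, 6.61 in Purkinje clones and 5.48 in Sertoli clones. Of 28 trophectoderm genes 1 was higher, Fabp3, and 0 were lower (shares over all genes 1.2% and 0.762%). In 6 of the 28 all Purkinje clones lay above all Sertoli clones, against 7.09% of all genes, and the list median was 0.64, against 0.02 over all genes. Fabp3 had 8.88, 9.19, 9.44 and 9.62 in Purkinje clones, against 8.06, 8.14, 7.96 and 7.83 in Sertoli clones, within the bright range described above. Of 21 pluripotency genes and 18 primitive endoderm genes 0 passed, against 1.96% of all genes. Dppa5a, an RNA-binding protein of pluripotent cells, averaged 9.71 ± 0.42 in Purkinje clones and 8.67 ± 0.05 in Sertoli clones (SD, n = 4 each; adjusted p = 0.0638). Sox17, a primitive endoderm factor, ranged from 1.34 to 4.21 in Purkinje clones and from -2.44 to 3.81 in Sertoli clones, so the embryos of each group were widely spread (adjusted p = 0.458).

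Among the signals that pattern the embryo, Bmp4 had -1.55, -1.5, -1.11 and -0.84 in Purkinje clones, against -3.42, -2.67, -2.99 and -3.42 in Sertoli clones, a rise of 1.87 (adjusted p = 0.0214). Nodal, a TGF-beta family ligand, had -2.32, -2.68, -3.42 and -3.42 in Purkinje clones, against -1.67, -1.75, -1.40 and -1.10 in Sertoli clones, a fall of 1.48 (adjusted p = 0.0459). They were the 2 of 32 genes of the Nodal, BMP and Wnt pathways that passed, against 1.96% of all genes, and both lay at low levels. Of 50 cell cycle and DNA replication genes 0 were higher and 1 was lower (shares over all genes 1.2% and 0.762%). The lower one was Bub1b, a kinase of the spindle checkpoint, by 0.93 (adjusted p = 0.0459). In 11 of the 50 all Purkinje clones lay below all Sertoli clones, against 5.19% of all genes, and in 4 above, against 7.09%, with a median change of -0.29. Of 28 FGF and MAP kinase genes, 18 Hippo genes and 27 basement membrane, collagen and integrin genes 0 passed, against 1.96% of all genes. Among these lists the last had the lowest median, -0.36.

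X-linked genes that passed were all higher in Purkinje clones. They were 10 of 410 tested (shares over all genes 1.2% higher and 0.762% lower), against 143 higher and 101 lower of 12715 autosomal genes. The median change was 0.31 on the X and 0.01 on the autosomes, and the X-linked median stayed between 0.14 and 0.41 in all other settings. Pls3, an actin-bundling plastin, had 4.84, 5.69, 5.27 and 5.59 in Purkinje clones, against 3.08, 2.88, 3.78 and 2.06 in Sertoli clones, a change of 2.40 (SE 0.37, adjusted p = 0.0298). Dock11, a guanine nucleotide exchange factor, rose by 2.30 and Lonrf3 by 2.03, both from levels near the floor in Sertoli clones, and the other probe of Dock11 changed by 0.10. Gla, a lysosomal galactosidase, rose by 1.28, and Timm8a1, of mitochondrial protein import, by 1.05. The median of X-linked minus the median of autosomal levels was -0.80, -0.26, -0.25 and -0.29 in Purkinje clones, against -0.74, -0.70, -0.39 and -0.95 in Sertoli clones. Purkinje replicate 1 lay among the Sertoli clones, and the groups overlapped.

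Xist had levels of 1.77, 0.37, 2.94 and 3.46 in Purkinje clones, against 3.32, 3.73, 3.09 and 1.94 in Sertoli clones, a change of -0.88 that did not pass (adjusted p = 0.494). It lay on the floor in the male IVF blastocysts. Its 4 probes changed by -0.88 to -0.06. Rhox5, an X-linked homeobox gene, averaged 7.17 ± 1.12 in Purkinje clones and 7.04 ± 0.35 in Sertoli clones (SD, n = 4 each; adjusted p = 0.915). The Y-linked Ddx3y, an RNA helicase, and Eif2s3y, a translation initiation factor, were measured in all 8 embryos and did not differ beyond their spread (changes 0.74 and 0.51, adjusted p = 0.204 and 0.611).

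**Figure D4:**
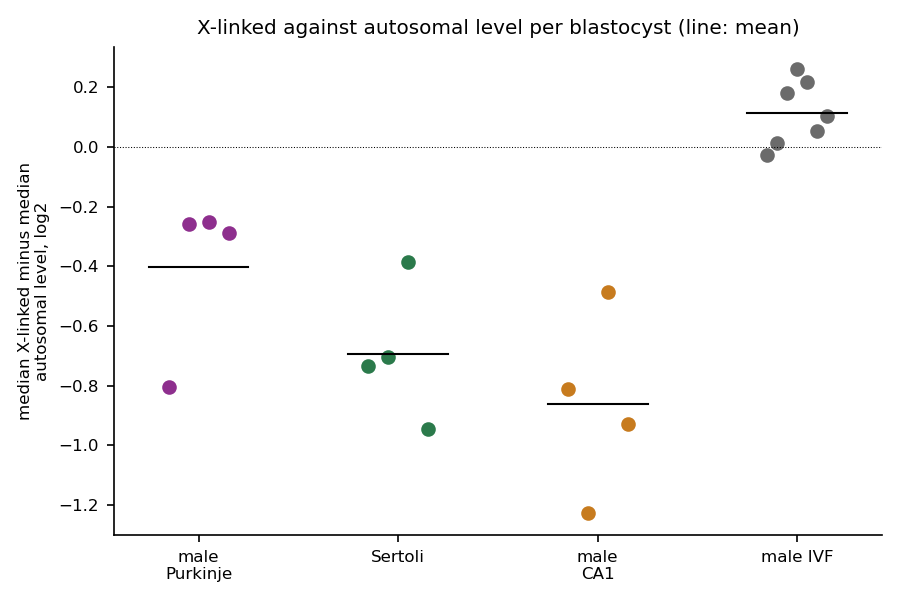
Median level of X-linked genes minus that of autosomal genes in each blastocyst (log2), without Xist and Tsix, for male Purkinje (n = 4), Sertoli (n = 4) and male CA1 clones (n = 4) and male IVF blastocysts (n = 7, another scanner). Lines are means; 3 Purkinje clones lie at -0.29 to -0.25 and the fourth at -0.80, within the range of the Sertoli clones.

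Imprinting and chromatin genes gave 0 calls, against 1.96% of all genes, a share at which lists this short hold few. None of 31 imprinted genes that depend on DNA methylation, 17 that depend on H3K27me3, 17 genes of DNA methylation and 34 histone modifiers passed. Meg3, a maternally expressed noncoding RNA, had -3.42, -1.01, -3.42 and -3.42 in Purkinje clones, against -1.09, 0.22, -1.15 and 0.56 in Sertoli clones, and did not pass (change -2.45, adjusted p = 0.0833). Dnmt1, the maintenance methyltransferase, changed by -1.07 (adjusted p = 0.115). Piwil2, a piRNA-binding protein of the germ line, had 2.34, 2.79, 2.65 and 2.83 in Purkinje clones, against 1.27, 1.56, 1.39 and 1.30 in Sertoli clones, a rise of 1.27 (adjusted p = 0.0309). It was the 1 of 16 germline genes that passed, against 1.96% of all genes. Of the Magea and Xlr families 2 listed members were tested and of the Rhox family 3, and 0 passed, against 1.96% of all genes. Rhox4e, a Rhox gene outside the list, had 0.65, 0.94, 0.69 and 0.89 in Purkinje clones, against -0.64, -0.15, -0.30 and -0.65 in Sertoli clones, a rise of 1.23 (adjusted p = 0.0347). Probes of these families can share signal between near-identical copies.

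Markers of the donor cells were mostly at or near background in both groups. Of 19 Purkinje cell markers on the array 3 had no probe well above background on any of the 8 arrays, among them Pvalb. The levels of Calb1, Gad1 and Gad2 lay on the floor in both groups. Of the 6 tested 0 were higher and 1 lower (shares over all genes 1.2% and 0.762%), and that was Aldoc, the glycolytic enzyme above. The mean over these 6 was -1.32 to -0.80 in Purkinje clones and -1.78 to -0.83 in Sertoli clones. Of 26 Sertoli cell markers 9 were tested, and Amh, Sox8 and Dmrt1 were not well above background on any array. Clu, clusterin, had -3.42, -2.44, -2.57 and -3.42 in Purkinje clones, against -1.44, -1.28, -0.68 and 0.59 in Sertoli clones, a fall of 2.26 (adjusted p = 0.0457). Clu averaged -1.33 in male CA1 clones and -1.76 in male IVF blastocysts, neither of which has a Sertoli donor. It passed in 0 of the 8 fits that left out an array. The mean over the 9 was -2.23 to -1.83 in Purkinje clones and -1.89 to -1.48 in Sertoli clones. Of 10 pan-neuronal genes tested 0 passed, against 1.96% of all genes. Nefl, a neurofilament chain, came nearest, with 0.59, -0.81, 1.46 and 0.94 in Purkinje clones, against -3.42, -1.28, -1.20 and -2.95 in Sertoli clones (change 2.76, adjusted p = 0.0590). Male IVF blastocysts, which have no neuronal donor, averaged 1.74 for Nefl. Glial, testicular and oocyte genes, 3, 5 and 4 tested, gave 0 calls, again against 1.96% of all genes.

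**Figure D5:**
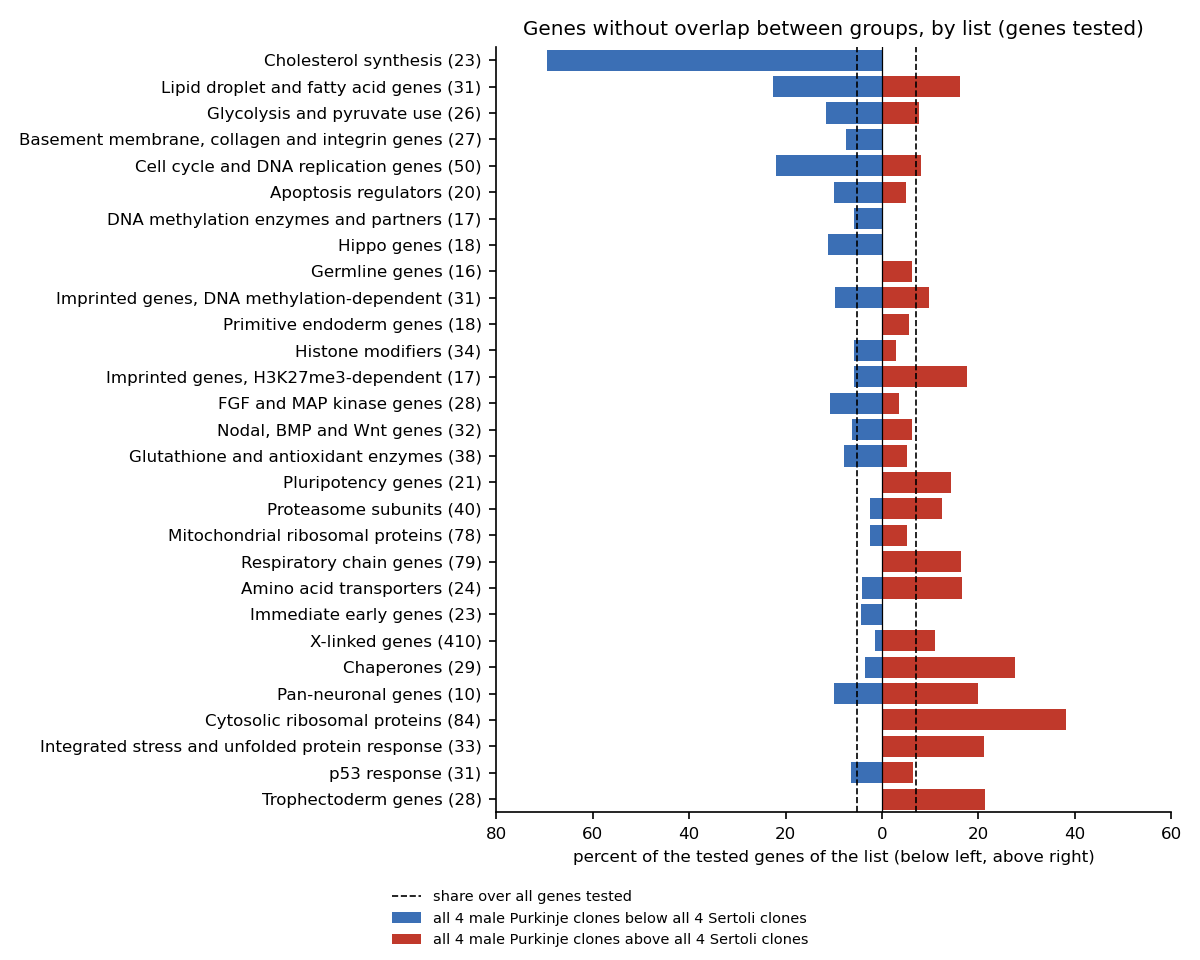
Share of the tested genes of each list in which all 4 male Purkinje clones lay below (left of 0) or above (right of 0) all 4 Sertoli clones, in percent, for lists with at least 10 genes tested. Dashed lines are the shares over all genes, 5.19% below and 7.09% above; cholesterol synthesis reaches farthest to the left (16 of 23 genes) and ribosomal proteins farthest to the right (32 of 84).

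Male CA1 clones, the other neuronal donor, gave more passing genes against either group. Between male Purkinje and male CA1 clones 2465 of 13620 genes passed (18.1%), and between male CA1 and Sertoli clones 2347 of 13419 (17.5%), against 1.96% between Purkinje and Sertoli clones. These comparisons share arrays, and the difference between their counts was not tested. Leaving out an array gave 741 to 3617 and 1027 to 3207 genes. The male CA1 arrays lay on a slide of their own, scanned on another day, so donor, slide and scan day cannot be told apart here either. The median SD of a gene was 0.31 in male CA1 clones, 0.43 in male Purkinje clones and 0.36 in Sertoli clones. Median correlations with male CA1 clones were 0.936 for Purkinje and 0.945 for Sertoli clones, against 0.949 between Purkinje and Sertoli clones. For Fasn, Purkinje minus CA1 was -2.40 and CA1 minus Sertoli -0.00, and for Sqle they were -1.38 and -0.56. For Parm1 they were -1.05 and 3.91, and for Bambi -1.53 and -0.95. For Pls3 they were 2.56 and -0.16.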

How the data were processed

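Single-colour Agilent arrays measured RNA of single mouse blastocysts. The deposited scanner files hold the intensity of each spot on a linear scale, and the processed signal used here was background-corrected by the authors' Agilent Feature Extraction software, 10.5.1.1 on the 8 arrays compared, per the file headers. The deposited value table holds log2 values; set against the scanner files it was log2 of the signal floored at 1, minus the array's 75th percentile, with each probe's median over the 19 male arrays subtracted (median absolute difference 0.0123). The medians of its columns lay between -0.59 and 0.77, and it served as an alternative only.

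Signals of the non-control spots were divided by the 75th percentile of their array, outlier spots left out, spots of a probe averaged, and values floored at 0.0938 (the highest over the arrays of the 1st percentile of signals well above background) before log2. Probes well above background on at least 3 of 4 arrays of either group, and above the floor on at least 3 arrays, were kept (18691). The brightest stood for a gene (13250). Probes were named through the RefSeq table of GRCm38.p6 (of 41174, 23082 matched by accession, 6582 by symbol and 3073 by synonym, and 8437 stayed as in the file). The test was the moderated test of limma 3.58.1 (lmFit, eBayes; R 4.3.3) on the 8 arrays, with 6 residual degrees of freedom and Benjamini-Hochberg adjustment over all genes. The other comparisons were fitted likewise on their own 8 arrays. In simulated data with these means and spreads, 29 of 50 genes shifted by -2 and 24 of 50 shifted by 2 were called. The comparison was male Purkinje against Sertoli clones. Of genes shifted by -1 and by 1, 3 of 50 and 7 of 50 were called, with 4 false calls among 14750 genes. The data themselves had 13250 genes. How far values on the floor or a shift of a whole array alter these counts was not tested.

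Named were the 12 largest rises and 12 largest falls among genes that passed, were well above background in all 4 embryos of the higher group and did not overlap. From each list up to 4 members that passed with the largest change were named, or, where none passed, the member with the largest change, and always Xist, Rhox5, Ddx3y and Eif2s3y. Other genes were added after their values were seen, to complete a pathway. The comparison, the lists and the tests were chosen with earlier results of these data known. The comparison of female clones, the level ranges and the fit without the dimmest arrays were added after the values were seen. Alternatives covered scaling, background (normexp on the median signal, as the files used lack the mean signal, with an offset of 50), floor, filter, probe, arrays in the fit, weights, variance trend, replicate number as a block and each array left out. The arrays' number limits the precision. Promoters came from RefSeq. A few genes are counted in the totals but not reported singly here.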

Additional observations from a re-analysis of the deposited data

Results flagged for a closer look

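In 16 of 156 groups of 4 embryos the highest or lowest value stood apart from the others by more than Dixon's 95% critical value. Chance gives about 1 in 20 only where values are not tied on the floor. As several groups hold such ties, the 16 cannot be set against that share. Sertoli replicate 4 stood apart in 4, Purkinje replicate 2 in 4, Sertoli replicates 1 and 2 in 3 each and Purkinje replicate 1 in 2. In Sertoli replicate 1, Myt1l was at -1.53 (the others -3.42 to -3.40), Khk at 1.74 (others 0.76 to 0.93) and Rhox6 at -0.15 (others on the floor). In Sertoli replicate 2, NAP072161-1 was at 1.1 (others 0.33 to 0.46), Bub1b at 3.01 (others 2.70 to 2.75) and the share of probes well above background at 46.2% (others 45.3% to 45.5%). In Sertoli replicate 4, Mael, a germ cell gene, was at -0.74 (others 2.99 to 3.46), Ccn2, a secreted Hippo target, at 5.71 (others 4.02 to 4.25), Spry1, an inhibitor of FGF signalling, at 0.54 (others 2.32 to 2.61) and NAP053178-1 at -3.41 (others on the floor). In Purkinje replicate 1, Tm7sf2 was at 1.55 (others 0.68 to 0.77) and Obsl1 at -2.98 (others on the floor). In Purkinje replicate 2, Lck was at -2.74 (others -3.42 to -3.36), Tcl1, an oocyte gene, at -2.16 (others -0.10 to 0.06), Tenm3 at -2.63 and Meg3 at -1.01 (for both, others on the floor). Where the others lie on the floor, their spread is that of the floor.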

How the results depend on the processing

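For 6 of the 8 arrays, all but Purkinje replicates 1 and 2, leaving the array out moved the count of genes between Purkinje and Sertoli clones by over 1.5 times. Leaving out 1 array gave 5 to 341 genes, 4 to 216 higher and 1 to 125 lower. With limma's replicate block 0 genes passed, 0 higher and 0 lower (2099 at an unadjusted p under 0.05), but the replicate numbers share only a name: same-numbered deviations correlated at -0.139 to 0.023. Without the 2 dimmest Purkinje arrays, a setting chosen after seeing the data, limma also gave 0, 0 higher and 0 lower. Scaling to the array median gave 143 genes, with 63 higher. The authors' deposited value table gave 802, with 614 higher and 188 lower, and a floor of 1 signal unit 809, with 611 and 198. Fits that borrowed the spread of other groups gave 612 genes with 12 male clones (376 and 236), 717 with 20 clones (456 and 261) and 798 with all 33 arrays (523 and 275), and array weights gave 2016 (1239 and 777). Quantile normalization, normexp, the other filters and floors, the mean of probes and the variance trend stayed within 1.5 times the 260. Of the 260, 257 kept their direction under all 4 normalizations and 98 passed all 4. Between Purkinje and CA1 clones the 2465 became 1531 with array median scaling and 242 with the replicate block, and 741 to 3617 without 1 array. Between CA1 and Sertoli clones the range without 1 array was 1027 to 3207. Few values changed sign, and the cause was not tested. The pan-neuronal median became -0.48 over genes well above background on all 8 arrays and -0.093 without the dimmest arrays. The Sertoli marker median was -0.52 to 0.10 when 1 array was left out, above 0 without Sertoli replicate 4. With a floor of 1 unit it was 0.039 over all its members that then passed the filter and -0.59 over the 9 genes of the report. The glutathione median became -0.014 with array median scaling, the ribosomal median -0.0030 with quantile normalization, and Rpl11 -0.14 as the mean of its probes. For named genes 1437 of the remaining values kept direction and call, 456 no longer passed and 33 newly passed. On dim arrays, low signals limit what can be measured: 7.1% of values lay on the floor.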

Other observations

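Some genes split the Purkinje clones by array. Mrps18b, a mitochondrial ribosomal protein, had levels of 1.22, 0.50, 3.73 and 4.24 in Purkinje replicates 1 to 4, against 0.38, 0.25, 0.12 and 0.39 in Sertoli clones (adjusted p = 0.181). Its other probe changed by 0.28. The Y-linked Rbmy, an RNA-binding protein of male germ cells, had -1.82, -3.42, 0.79 and 3.18 in Purkinje clones (adjusted p = 0.204). It lay on the floor in all Sertoli clones and in Purkinje replicate 2. The groups thus overlapped, and a least fold difference cannot be given. Replicates 3 and 4, with high values for both genes, had a 75th percentile of the signal of 370.4 and 229.9 units, the lowest of the 8 arrays.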
